A study of Danio rerio with 12 samples.

Results

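The somatolactin genes smtla and smtlb were followed across atrazine doses in zebrafish larvae (AB strain, wild type), taken whole. The herbicide was given in the water from about 1 hour after fertilization until collection at 72 hours, at 0, 0.3, 3 or 30 ppb, and the 0 ppb larvae served as controls. Each dose had 3 pools of 50 larvae, and 1 single-colour NimbleGen array was run per pool, 12 arrays in all. Every array carries several oligonucleotide features per target. The members were all features that the platform annotation assigns to either symbol, which gave 12 features for smtla and 12 for smtlb out of 385000, or 2 genes of 2650 with a symbol. The genes were chosen by their measured log2 levels over the 4 doses, which were already known, so those levels are given here as a description, without a test.

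Somatolactins are pituitary hormones of fish that belong to the same family as growth hormone and prolactin. They are secreted by cells of the pars intermedia of the pituitary and act through a receptor related to the growth hormone receptor. Zebrafish carry 2 somatolactin genes, smtla and smtlb. In medaka, loss of the alpha hormone alters the balance of pigment cells in the skin, and in several fish somatolactin has been linked to adaptation to background colour, lipid use, and acid-base and mineral balance. In RNA from whole larvae, a change in the number of hormone cells and a change in RNA per cell cannot be told apart.

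The level of smtla was higher at 3 and 30 ppb than in control larvae, and at 0.3 ppb the mean of its features differed little from that of the controls. As the mean log2 intensity of its 12 features, smtla stood at 6.59, 6.52 and 6.52 in the 3 pools at 0 ppb. The pools at 0.3 ppb read 6.69, 6.76 and 6.32, those at 3 ppb 6.87, 7.07 and 7.20, and those at 30 ppb 7.07, 7.39 and 7.08. Every pool at 3 or 30 ppb therefore exceeded every pool at 0 or 0.3 ppb, while the 0.3 ppb pools fell on both sides of the controls. Group means were 6.54 ± 0.04 at 0 ppb, 6.59 ± 0.23 at 0.3 ppb, 7.05 ± 0.17 at 3 ppb and 7.18 ± 0.18 at 30 ppb (SD, n = 3 each).

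The fitted log2 difference of smtla from 0 ppb was 0.05 at 0.3 ppb, 0.51 at 3 ppb and 0.64 at 30 ppb, each with an SE of 0.15. On the linear scale these were 1.04-fold, 1.42-fold and 1.56-fold. In the order of its levels, 0 and 0.3 ppb overlapped, and 3 ppb lay 0.45 (SE 0.15) above 0.3 ppb with no overlap. The 30 and 3 ppb groups differed by 0.13 (SE 0.15) and overlapped. How many of all units had no overlap against 0.3 ppb was not counted here, and nothing is read from that state. With the median of the features in place of their mean, the differences from 0 ppb were 0.22, 0.42 and 0.42 (SE 0.23 each) in the order of dose, so the step between 0.3 and 3 ppb was smaller. Over the rank of the dose the slope was 0.24 per step (SE 0.05). Dose groups accounted for 79.8% of the variation of smtla over the 12 arrays, against 17.4% for the median of all 37144 units (a unit is a gene with a symbol or a target without one). Because the gene was chosen by its levels over these doses, nothing is read from this share.

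The level of smtlb varied more between pools of 1 dose than between doses. Its log2 intensities were 6.35, 5.89 and 6.17 at 0 ppb and 6.35, 5.98 and 6.38 at 0.3 ppb. They were 6.82, 6.10 and 6.48 at 3 ppb, and 6.37, 6.29 and 6.21 at 30 ppb. Every pair of doses overlapped, and the highest pool of all was replicate 1 at 3 ppb. Means were 6.14 ± 0.23, 6.24 ± 0.22, 6.47 ± 0.36 and 6.29 ± 0.08 from the lowest to the highest dose (SD, n = 3 each). The differences from 0 ppb were 0.10 (SE 0.19), 0.33 (SE 0.19) and 0.16 (SE 0.19), and the slope over dose rank was 0.07 per step (SE 0.06). Dose groups accounted for 26.4% of its variation. The 3 comparisons with 0 ppb share the same 3 control pools.

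**Figure D1:**
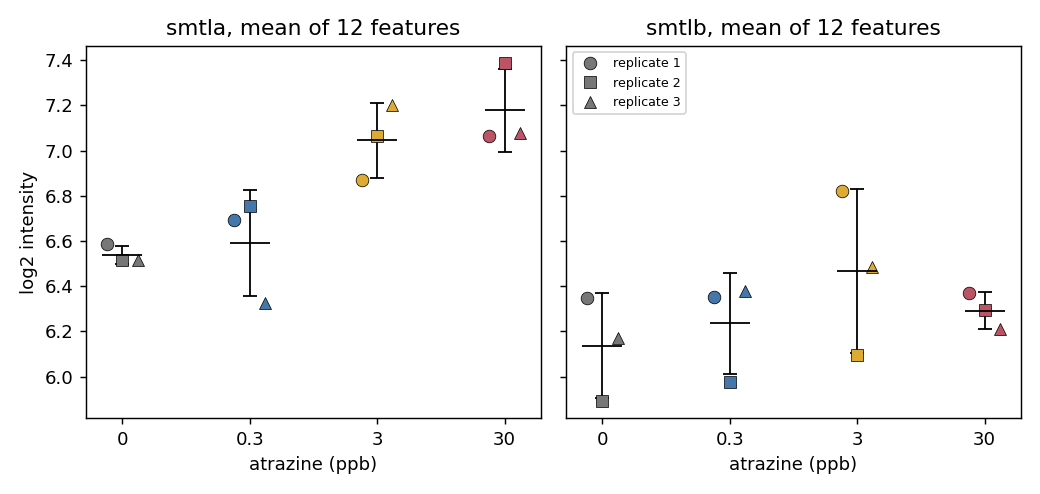
Log2 intensity of smtla (left) and smtlb (right), each the mean of 12 features, against atrazine dose in ppb. Symbols are single pools, shaped by replicate number, and the bar and whiskers give the mean ± SD of 3 pools. For smtla the pools at the upper doses do not overlap those at 0 and 0.3 ppb, whereas the pools of smtlb overlap between all doses.

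limma was fitted over all 37144 units with Benjamini-Hochberg adjustment, as a background. It called neither gene, which is no test of genes chosen by these levels. The share of units called at an adjusted p under 0.05 was 0.00% at each of 0.3, 3 and 30 ppb. The unadjusted p of limma was under 0.05 for 551, 1123 and 928 units, each fewer than a 0.05 share of all units. For the trend over dose rank 0.0969% of units were called, and neither somatolactin gene was among them. Groups without overlap, with every treated pool higher, occurred in 2.09% of units at 0.3 ppb, 3.52% at 3 ppb and 3.40% at 30 ppb. Of the somatolactin genes, smtla was in this state at 3 and 30 ppb and smtlb at no dose. These contrasts are those through which the genes were chosen, so nothing is read from the counts or from the absence of calls.

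The 12 features of smtla did not move together. A feature is named here by the number at the end of its ID, whose meaning no table used here states. Features 4, 321, 532 and 580 had mean log2 intensities above the lower quartile of all features, which was 6.81 (an intensity of 112). The other 8 features read between 4.59 and 7.52 on all arrays, near the lower end of the array's range, which began at an intensity of 18.0. No background reading was used here, so no feature could be called above background.

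Feature 321 carried the largest dose difference of smtla. It read 8.87, 6.94 and 6.75 at 0 ppb and 7.00, 8.02 and 7.12 at 0.3 ppb. At 3 ppb it read 9.44, 9.46 and 9.81, and at 30 ppb 9.66, 10.38 and 9.90. All pools at 3 and 30 ppb were above all pools at 0 and 0.3 ppb, although replicate 1 at 0 ppb came close. The group means were 4.14-fold higher at 3 ppb and 5.49-fold higher at 30 ppb than at 0 ppb, log2 differences of 2.05 and 2.46. At 30 ppb this difference exceeded that of 99.9% of all features on the array. From this rank nothing is read, since feature 321 was picked as the largest of a gene chosen by its levels over these doses.

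Feature 4, the brightest of smtla, differed by nearly as much between doses but was far more variable between pools of 1 dose. It read 9.73, 12.84 and 8.72 at 0 ppb and 9.41, 13.17 and 8.18 at 0.3 ppb. At 3 ppb it read 10.59, 13.70 and 12.89, and at 30 ppb 11.28, 13.48 and 13.21. Replicate 2 was high at every dose, replicate 3 was low at 0 and 0.3 ppb and high at 3 and 30 ppb, and the doses overlapped. The differences of the means from 0 ppb were 1.96 at 3 ppb and 2.23 at 30 ppb. The control pools alone spanned 17.4-fold, and the within-dose SD of 1.96 was larger than that of 99.9% of all features.

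The other 2 brighter features of smtla did not show the step at 3 ppb. Feature 532 read 10.34, 8.82 and 9.73 at 0 ppb, 10.40, 9.53 and 9.86 at 0.3 ppb, 10.76, 9.10 and 9.84 at 3 ppb, and 10.56, 9.82 and 8.61 at 30 ppb. Its differences from 0 ppb were 0.30, 0.27 and 0.03 in the order of dose, within the spread of its pools. Feature 580 differed by -0.63 at 0.3 ppb, -0.30 at 3 ppb and 1.06 at 30 ppb, with overlap throughout. Among the 8 dimmer features, 5 were higher and 3 lower than at 0 ppb at 3 ppb, with the same counts at 30 ppb. At 0.3 ppb 7 were higher and 1 lower. Their median difference was 0.20 at 0.3 ppb, 0.28 at 3 ppb and 0.16 at 30 ppb, so the median showed no clear step at 3 ppb. The single dimmer features were split, however. At 3 ppb features 118, 374, 432 and 705 differed from 0 ppb by 0.65, 0.52, 0.77 and 0.90, and feature 256 by 0.03. Features 156, 201 and 347 differed by -0.32, -0.17 and -0.29.

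Over all 12 features of smtla, the mean was higher than at 0 ppb in 8 at 0.3 ppb, 8 at 3 ppb and 9 at 30 ppb. Of all features on the array 51.3%, 48.3% and 46.2% were higher at these doses. No smtla feature had every pool above every control pool at 0.3 ppb, 3 did at 3 ppb (321, 432 and 705) and 3 at 30 ppb (256, 321 and 432). The share over all features was 2.55%, 4.01% and 4.12%. Features of 1 gene share their RNA and their target and are no replicates of each other, and these counts come from the contrasts that chose the gene.

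**Figure D2:**
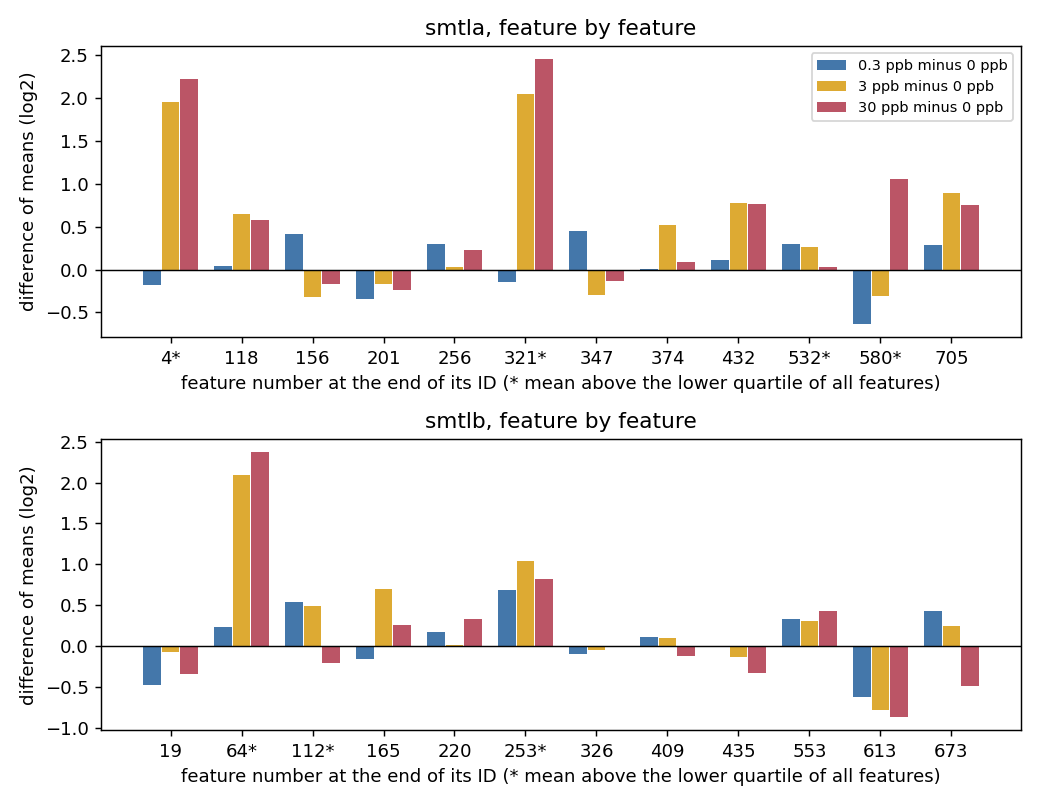
Log2 difference of the mean from 0 ppb for each of the 12 features of smtla (top) and smtlb (bottom), as bars for 0.3, 3 and 30 ppb, by the number at the end of the feature's ID. An asterisk marks features with a mean above the lower quartile of all features. Differences over 1.9 at 3 and 30 ppb occur in features 4 and 321 of smtla and feature 64 of smtlb.

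Features 4 and 321 together made up 66.1% of the summed difference of smtla at 3 ppb and 61.2% at 30 ppb. They were picked for the largest rise at 30 ppb. A large share at that dose, and a smaller difference without them, were therefore fixed by the choice. Without both, the difference of the gene was 0.21 (SE 0.16) at 3 ppb and 0.30 (SE 0.16) at 30 ppb, and pools at both doses overlapped those at 0 ppb. Without feature 4 alone the differences were 0.37 and 0.49 (SE 0.15 each), and without feature 321 alone 0.37 and 0.47 (SE 0.15 each). In both cases all pools at 3 and 30 ppb stayed above all control pools. Median polish over the features, the summary that RMA uses, gave 0.34 (SE 0.12) and 0.50 (SE 0.12), also without overlap. The difference was above 0 with each of these feature sets. Nothing is read from that sign, since the gene was chosen by its levels over these doses. The smaller difference without features 4 and 321 is a description, since that pair was picked by its rise.

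The close agreement of the control pools in smtla was not present in its single features. The SD of the gene at 0 ppb was 0.04, a value that only 4.38% of units undercut, and the median over units was 0.17. Feature 4 alone had an SD of 2.15 in the same pools, feature 321 of 1.18 and feature 580 of 1.07. Feature 4 was highest in replicate 2, where features 321, 532 and 580 were lower than in replicate 1. Without feature 4 the SD of the gene at 0 ppb was 0.21. The standard errors above use the spread over all doses and not the controls alone.

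**Figure D3:**
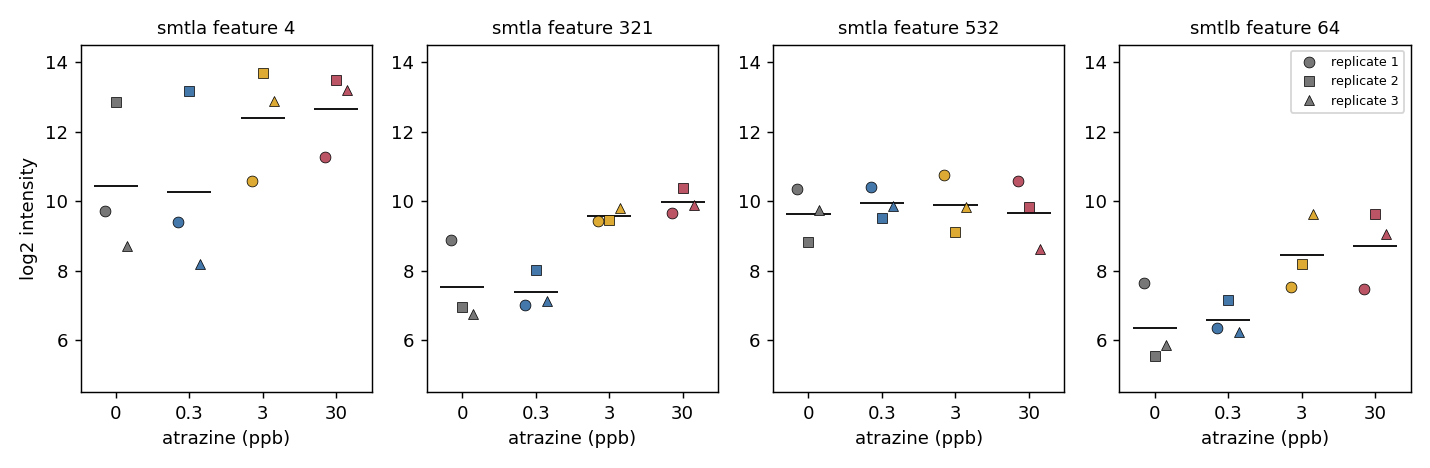
Log2 intensity of 4 single features in every pool against atrazine dose in ppb, with features 4, 321 and 532 of smtla and feature 64 of smtlb from left to right. Symbols are shaped by replicate number and lines give dose means. Feature 4 is high in replicate 2 at every dose, feature 321 separates 3 and 30 ppb from 0 and 0.3 ppb, and feature 532 shows neither pattern.

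In smtlb feature 64 had the largest difference at 3 and 30 ppb. It made up 52.7% of the summed difference of the gene at 3 ppb, and at 30 ppb it exceeded that sum (127%), since the other features together were below 0. It read 7.63, 5.55 and 5.86 at 0 ppb and 6.35, 7.15 and 6.23 at 0.3 ppb. At 3 ppb it read 7.52, 8.18 and 9.63, and at 30 ppb 7.47, 9.63 and 9.05. Only replicate 1 kept the groups from separating, being high at 0 ppb and lowest of its group at 3 and 30 ppb. The means were 4.27-fold higher at 3 ppb and 5.16-fold higher at 30 ppb than at 0 ppb, log2 differences of 2.09 and 2.37. At 30 ppb this exceeded 99.9% of all features, a rank from which nothing is read, since feature 64 was picked as the largest of 12. In feature 321 of smtla, too, replicate 1 was the highest of the control pools.

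Among the other features of smtlb, number 253 differed by 1.04 at 3 ppb and 0.83 at 30 ppb with overlap, and numbers 165 and 112 differed by 0.71 and 0.49 at 3 ppb. Number 613 went the other way: it read 5.56, 5.40 and 5.60 at 3 ppb and 5.62, 5.16 and 5.53 at 30 ppb, against 6.47, 5.72 and 6.71 at 0 ppb. All its pools at 3 and 30 ppb were below all control pools, with differences of -0.78 and -0.86. How many of all features were in this state was not counted here. Of the 12 features, 8 were higher than at 0 ppb at 0.3 ppb, 8 at 3 ppb and 5 at 30 ppb. The shares over all features were 51.3%, 48.3% and 46.2%. None of the 12 had every treated pool above every control pool at any dose, a state of 2.55%, 4.01% and 4.12% of all features. Nothing is read from these counts. The 9 features with means below the lower quartile of all features had a median difference of 0.01 at 3 ppb and -0.12 at 30 ppb. Without feature 64, picked for its rise, the difference of smtlb was 0.17 (SE 0.21) at 3 ppb and -0.05 (SE 0.21) at 30 ppb.

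Restricted to its brighter features, the mean of smtla was higher at the upper doses by a larger amount, but these features did not move together. The mean of its 4 brighter features was 9.78 ± 0.30 at 3 ppb and 10.23 ± 0.48 at 30 ppb, against 8.79 ± 0.72 at 0 ppb (SD, n = 3 each). The differences were 0.99 (SE 0.41) and 1.44 (SE 0.41), or 1.99-fold and 2.72-fold. At 3 ppb features 4 and 321 differed by 1.96 and 2.05, and features 532 and 580 by 0.27 and -0.30. At 30 ppb the values were 2.23 and 2.46, and 0.03 and 1.06. Brightness was averaged over all 12 arrays, so a feature that was high at the upper doses was more likely to be kept, and these values are a description. All 4 features also had means above the quartile at 0 ppb. In smtlb features 64 and 253 had means of 6.35 and 6.50 at 0 ppb, below the quartile of 6.81, and were kept only through their values at other doses, so nothing is read from the brighter features of that gene.

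**Figure D4:**
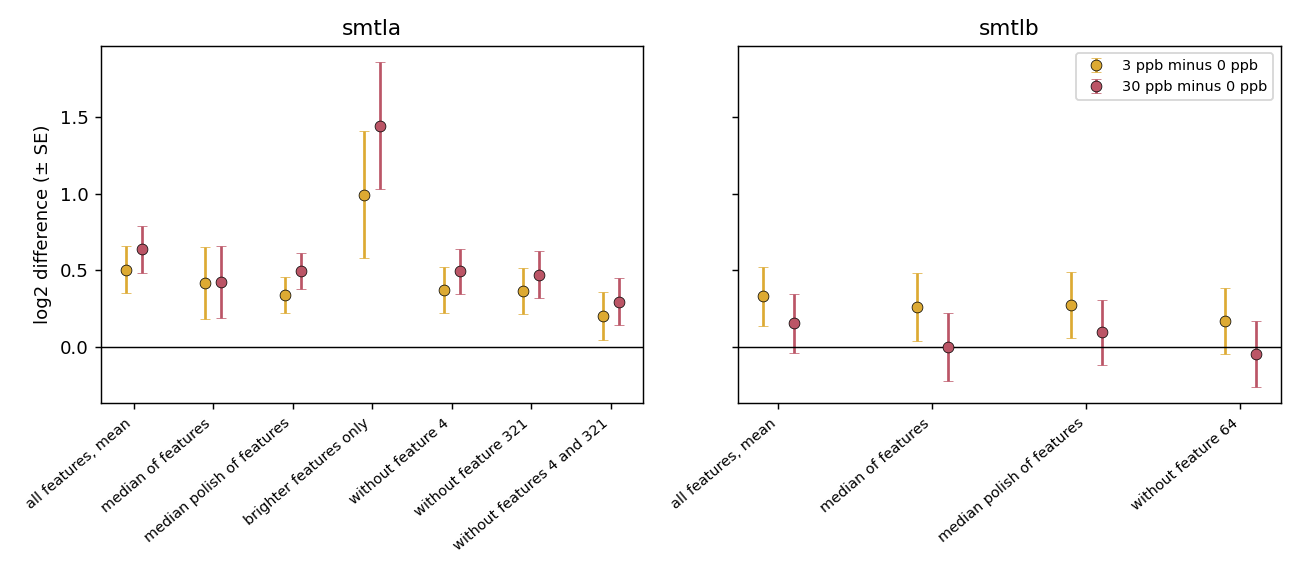
Log2 difference from 0 ppb (± SE) of smtla (left) and smtlb (right) at 3 and 30 ppb, for the mean of all features and for other summaries and feature sets. For smtla the value at 30 ppb runs from 0.30 without features 4 and 321 to 1.44 with brighter features only. For smtlb it runs from -0.05 without feature 64 to 0.16 with the mean of all features, and the brighter features are not shown.

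Within doses the 2 somatolactin genes did not vary together in a way that passed a test. Deviations of pools from their dose mean, which the choice of the genes did not use, were compared by exact two-sided permutation of pools within doses for 3 gene pairs. For smtla and smtlb Pearson's r was -0.36 (exact permutation p = 0.359, adjusted p = 0.538, n = 12 pools), Spearman's rho was -0.41 (exact p = 0.277), and r was -0.35 without the 2 pools farthest from the median of smtla. The third pituitary hormone gene on the array with a symbol, lhb, encodes the beta subunit of luteinizing hormone. For smtlb and lhb r was 0.69 (exact permutation p = 0.0664, adjusted p = 0.199, n = 12 pools), rho was 0.54 (exact p = 0.14) and r was 0.59 without the 2 farthest pools. For smtla and lhb r was -0.21 (exact permutation p = 0.653, adjusted p = 0.653, n = 12 pools), rho was 0.03 (exact p = 0.926) and r was -0.48 without the 2 farthest pools. In each pair the farthest pools were picked by the level of the first gene over all doses, and the dose means still held them. The r values without them are therefore a description. Without 3 ppb replicate 1, where lhb was highest, the r of smtla and lhb was 0.57 (exact permutation adjusted p = 0.26), so its sign rested on that pool.

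Among 2457 other genes with a usable symbol, those most like smtla over the 12 arrays were ilkap (Pearson's r = 0.90), trim35-36 (0.89), zdhhc23b (0.88), mgp (0.86) and npffl (0.84). The median over all these genes was -0.07. The gene ilkap encodes a protein phosphatase, zdhhc23b a palmitoyltransferase, mgp a matrix protein that limits calcification, and npffl a neuropeptide FF-like precursor. At 30 ppb trim35-36 was at 6.71 ± 0.30, against 6.08 ± 0.29 at 0 ppb, and npffl at 10.06 ± 0.24, against 9.34 ± 0.14 (SD, n = 3 each). Most like smtlb were sid4 (0.90), il17c (0.90), xaf1 (0.90), faslg (0.89) and znf385b (0.89), with a median over all genes of 0.05. The genes il17c and faslg encode an interleukin 17 family cytokine and the Fas ligand, a trigger of cell death. None of the genes most like smtla was among the 5 most like smtlb. The arrays share dose and all array-wide variation, and the genes were picked as the highest of many, so these r values are a description.

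Of 12 pituitary hormone genes listed, 3 were measured under a symbol, the somatolactin genes and lhb. The genes of growth hormone, prolactin, proopiomelanocortin and thyrotropin were not analysed here, nor was the lineage factor gene pou1f1. The level of lhb was 7.39 ± 0.69 at 3 ppb and 7.36 ± 0.25 at 30 ppb, against 5.94 ± 0.05 at 0 ppb (SD, n = 3 each). Its differences were 1.44 (SE 0.26, limma adjusted p = 0.244) and 1.42 (SE 0.26, limma adjusted p = 0.179). At 0.3 ppb it differed by 0.33 (SE 0.26), with a limma adjusted p of 1. Its slope over dose rank, 0.54 per step (SE 0.09), was past the threshold (limma adjusted p = 0.0487), but it held only without 3 ppb replicate 1 (adjusted p = 0.00149) when each pool was dropped in turn. In the other 11 fits the adjusted p was 0.0605 to 0.244, and with the median of features it was 0.0622. Dropping the same pool also put the difference of lhb at 30 ppb past the threshold (limma adjusted p = 0.00798).

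Upstream of the somatolactin cells, 4 of 42 listed genes of pituitary development were measured, and limma called none at any dose or over the trend. All 4 had values slightly below 0 at 30 ppb, with a median of -0.10 against -0.02 for all units. They were pitx1 (-0.17, SE 0.16) and foxl2a (-0.11, SE 0.16), transcription factor genes of the early pituitary and of gonadotropes, insm1a (-0.09, SE 0.13), a factor of endocrine cells, and nr0b1 (-0.04, SE 0.23), an orphan nuclear receptor gene. Of 78 hypothalamic peptide and receptor genes 17 were measured, and none passed at any dose or over the trend. At 3 ppb 14 of the 17 were higher (median 0.11, against -0.01 for all units), and at 30 ppb 10 were (median 0.03). Of all 37144 units, 17543 were higher at 3 ppb and 16597 at 30 ppb, and nothing is read from the counts of these lists. At 30 ppb npffl differed by 0.72 (SE 0.16, limma adjusted p = 0.41) and the vasopressin gene avp by 0.49 (SE 0.16, adjusted p = 1). The dopamine receptor gene drd4a differed by -0.27 (SE 0.16) and the receptor gene adcyap1r1a, for the pituitary adenylate cyclase activating peptide, by -0.26 (SE 0.23), and both adjusted p-values were 1.

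Downstream, 2 of 40 listed receptor and signalling genes were measured, and neither passed. These were jak2a, which encodes a kinase that relays growth hormone family signals (-0.10, SE 0.18, at 30 ppb), and igfbp5a, which encodes a binding protein of insulin-like growth factors (-0.21, SE 0.19). The somatolactin receptor gene was not analysed here. Of 41 pigment cell genes 7 were measured and none passed. At 30 ppb 3 were higher and 4 lower, with a median of -0.09, against -0.02 for all units. The largest value was that of csf1ra, a receptor gene needed by yellow pigment cells (-0.48, SE 0.29), which was -0.15 without 0 ppb replicate 1. It was followed by pmela (0.29, SE 0.44), dct (-0.17, SE 0.19) and slc24a5 (-0.14, SE 0.30), genes of melanin-forming cells. All limma adjusted p-values of these genes were 1.

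Of 44 genes of calcium, phosphate and acid-base transport 10 were measured and none passed at any dose or over the trend. At 3 ppb 8 of the 10 were higher (median 0.16, against -0.01 for all units) and at 30 ppb 7 were (median 0.05, against -0.02). Of all 37144 units, 17543 and 16597 were higher at these doses, and nothing is read from the counts of the list. At 30 ppb the ammonia transporter gene rhcga differed by 0.67 (SE 0.40), or 0.20 without 30 ppb replicate 1. In the same comparison the stanniocalcin gene stc1, a hormone gene of calcium balance, differed by -0.36 (SE 0.21), the parathyroid hormone gene pth1a by 0.25 (SE 0.30) and stc1l by 0.25 (SE 0.17), with adjusted p-values of 1. Of 34 neuronal markers 7 were measured, none passed at any dose or over the trend, and their median at 30 ppb was -0.04. The values of dlg4b, slc17a6b, scg2b and grin1a, genes of synapses and secretory granules, were -0.22 (SE 0.18), -0.11 (SE 0.23), 0.09 (SE 0.14) and -0.05 (SE 0.12). The part of the number of hormone cells in the smtla values was not tested.

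**Figure D5:**
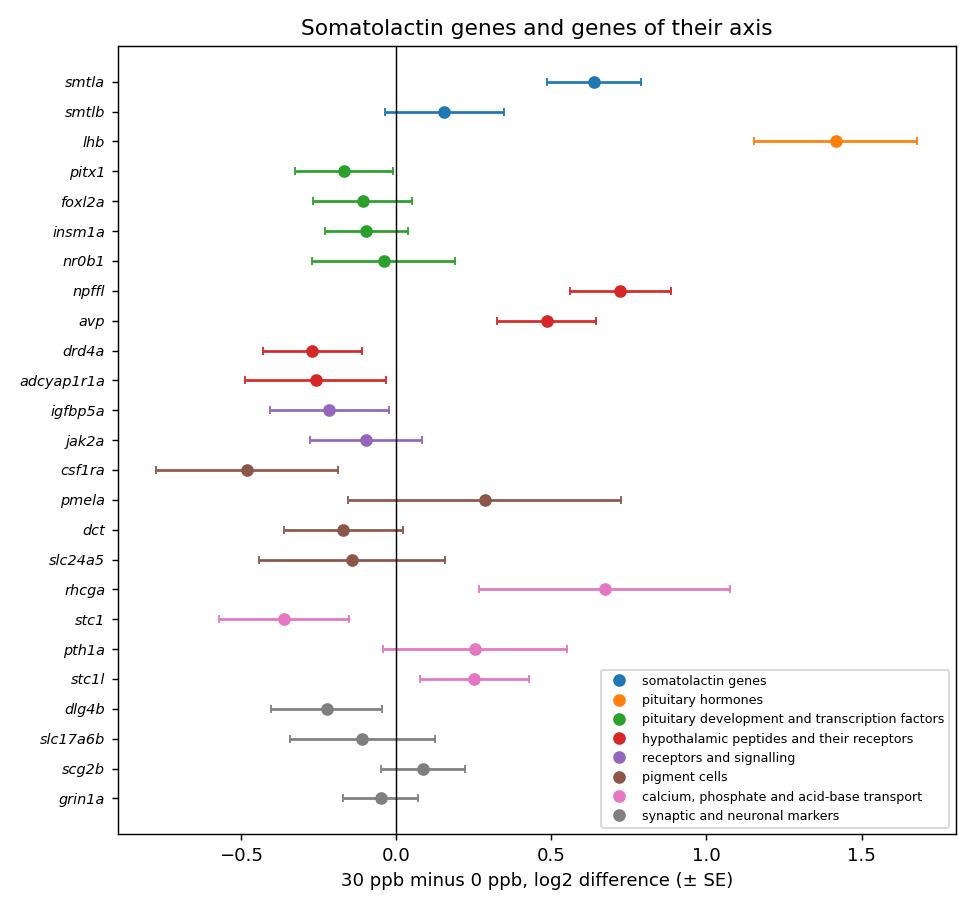
Log2 difference between 30 and 0 ppb (± SE) of smtla, smtlb and the named genes of their axis, coloured by list. The values of lhb, npffl, rhcga, smtla and avp are the highest, from 1.42 to 0.49, and all pituitary development genes lie slightly below 0.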

How the data were processed

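The authors deposited 1 table of linear fluorescence intensity for 385000 features by 12 arrays; the submitters' processing notes name RMA, with no version given in the sources used here. Array medians of the deposited intensity were 529 to 530, and the number of arrays limits precision. The fixed plan assumed log2 values, and the intensities were therefore transformed to log2 first.

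The platform annotation named 30326 features, and RefSeq accessions (GRCz12tu, names only) 399 more. Features were averaged per gene or per unnamed target (37144 units). Dose means and a slope over dose rank were estimated from all 12 arrays by limma 3.58.1 (R 4.3.3). The fit was also run on simulated data with independent noise, without the variation that the arrays share, and nothing is read from that run. Correlations and tables used Python 3.11.15. Per the labels the pools are biological replicates, with no clutches named, so p-values measure the spread between these pools. Arrays of 1 dose correlated at 0.971 to 0.994, and none were identical.

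The members and the 7 gene lists (291 genes, 50 measured) were chosen with earlier results of these data known. Named are both somatolactin genes, the 5 genes most like each by Pearson's r, lhb, and the 4 members of each other list with the largest difference at 30 ppb. Median polish, the brighter features and the sets without single features were added after seeing the data. Protein and promoter sequences are not analysed here.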

Additional observations from a re-analysis of the deposited data

Results flagged for a closer look

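The ammonia transporter gene rhcga, of the acid-base list, was higher at 3 and 30 ppb than the control mean in 3 of 3 pools each and lower in 3 of 3 pools at 0.3 ppb. Its level was 8.14 ± 0.30 at 0.3 ppb, 9.31 ± 0.66 at 3 ppb and 9.32 ± 0.82 at 30 ppb, with 8.65 ± 0.49 at 0 ppb (SD, n = 3 each). The differences between doses, 1.18 (SE 0.40) for 3 minus 0.3 ppb and 1.18 (SE 0.40) for 30 minus 0.3 ppb, did not pass limma's test over all units (adjusted p = 1 and 0.995). Without 30 ppb replicate 1, the highest pool, the difference of 30 minus 0 ppb was 0.20, against 0.67 with all pools. Neither somatolactin gene showed such opposite directions. Single outlying pools were not searched for, since each dose had only 3.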

How the results depend on the processing

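The differences of smtla at 3 and 30 ppb stayed above 0 under every alternative that gave a value. Nothing is read from that sign, since the gene was chosen by these levels and the alternatives reuse the same arrays. The median of features gave 0.22, 0.42 and 0.42 for smtla at 0.3, 3 and 30 ppb with a slope of 0.15 (SE 0.07), and -0.09, 0.26 and 0.0023 for smtlb. Of the settings chosen after seeing the data, brighter features only gave -0.16, 0.99 and 1.44 for smtla at 0.3, 3 and 30 ppb with a slope of 0.55. For smtlb it gave 0.49, 1.21 and 1.00 with a slope of 0.37, values partly fixed by the filter, since 2 of the 3 features were below its limit at 0 ppb. Without features 4 and 321, the pair picked for the largest rise at 30 ppb, smtla differed by 0.21 at 3 ppb and 0.30 at 30 ppb. Leaving out each pool gave ranges of -0.03 to 0.19, 0.43 to 0.59 and 0.53 to 0.69 for smtla in the order of dose, with slopes of 0.21 to 0.25. For smtlb the ranges were -0.02 to 0.23, 0.15 to 0.52 and 0.03 to 0.26, with slopes of 0.03 to 0.09. The lowest value at 3 ppb, 0.15, was that without 3 ppb replicate 1. Both genes were among the dim units, and had no value once those were left out. The same held for lhb.

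The counts of units called by limma were 3 at 3 ppb and 2 at 30 ppb with the median of features, and 1 at 30 ppb with the replicate block. The trend gave 14 units with the median of features and 11 without dim units. Leaving out a pool gave 0 to 4 units at 30 ppb and 0 to 58 for the trend. At 30 ppb the 4 calls came from dropping 3 ppb replicate 1, and 2 from dropping 0.3 ppb replicate 2. For the trend, dropping 3 ppb replicate 1 gave 58 calls, 0.3 ppb replicate 3 gave 23, 30 ppb replicate 3 gave 5 and 0 ppb replicate 2 gave 1. Dropping replicate 2 at 0.3, 3 or 30 ppb, or replicate 3 at 0 or 3 ppb, gave 0. In this balanced design the replicate block cannot move the differences of smtla (0.05, 0.51 and 0.64) or smtlb (0.10, 0.33 and 0.16). With it the SE was 0.15 for smtla, as without it, and 0.14 for smtlb, against 0.19 without it. Same-numbered deviations from the dose means correlated from -0.37 to 0.68, and 6 of 12 arrays correlated best with an array of their own number. The labels do not say what arrays of 1 number share, and a shared effect was not tested. The within-dose r of smtlb and lhb ran from 0.38 to 0.77 over the pools left out, and passed (0.75, exact permutation adjusted p = 0.0417) without 0.3 ppb replicate 3. That of smtla and lhb ran from -0.40 to 0.57 (0.57 without 3 ppb replicate 1), and that of smtla and smtlb from -0.44 to -0.12.

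Among named list genes, some values at 30 ppb changed sign, all with adjusted p of 1. With the median of features foxl2a was 0.10 and nr0b1 0.027. Leaving out each pool in turn gave -0.218 to 0.035 for foxl2a, -0.15 to 0.147 for nr0b1, -0.221 to 0.066 for jak2a, -0.36 to 0.0052 for dct, -0.447 to 0.17 for slc24a5, -0.301 to 0.091 for slc17a6b and -0.11 to 0.51 for pmela. The cause of these changes was not tested.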
